A study of Mus musculus with 4 samples.

Results

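The genes described here are 10 secreted factors of fibroblasts, the chemokines *Cxcl1*, *Cxcl5*, *Cxcl10*, *Cxcl12*, *Ccl2* and *Ccl7*, the IL-6 family cytokines *Il6*, *Il11* and *Lif*, and the colony-stimulating factor *Csf1*. They were measured by every probe that the array annotation names for them, 15 of the 39429 probes and 10 of the 24104 gene names on the array. The RNA came from NIH-3T3:Per2-Luc, mouse NIH-3T3 fibroblasts of an immortalized line that carry luciferase driven by the *Per2* promoter. Cells were given a pulse of critical oxidative stress (cOS-pulse, 5 mM H2O2 for 10 min) and collected 4 h, 20 h or 32 h later, and control cells (0 mM H2O2) received a change to fresh medium. Each condition had 1 array, so no statistical test was possible and no p-value is given. The control is labelled as 4 h, and the ratios at 4 h, 20 h and 32 h all share this 1 control array, so time in culture and the pulse cannot be told apart at 20 h and 32 h.

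Chemokines are small secreted proteins that guide leukocytes through receptors coupled to G proteins, while IL-6, IL-11 and LIF share the receptor chain gp130 and signal through JAK kinases and STAT factors. Fibroblasts are a known source of these factors after injury or stress. Transcription of many of them is driven by NF-kappa-B, AP-1 and C/EBP factors, and many of their mRNAs are short-lived, with decay controlled by proteins that bind AU-rich elements.

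The values are scaled signals, the signal of a probe divided by the 75th percentile of the 39429 probes on its array, and they are not comparable between probes. Detection of a probe required the scanner's well-above-background flag on 50% or more of its spots, and the 4 arrays detected between 52.7% and 59.1% of the probes. A log2 ratio is given with the error of the scanner software for the spots, which does not include differences between cultures, and "rose" and "fell" are used for ratios of at least 2-fold. Where 1 array of a pair detected a probe, the ratio is a bound. It was taken over the dim array's own signal or over the lowest detected signal on that array, whichever was brighter. Of the 15 probes, 11 were detected on all 4 arrays, 1 *Cxcl10* probe in the control only, 1 *Cxcl12* probe at 4 h only, and 1 probe each of *Cxcl12* and *Csf1* on no array. Markers of fibroblasts were detected on all arrays for 11 of 12 genes (*Postn* was not), with a summed scaled signal between 976 and 1140, most of it from *Dcn* and *S100a4*. Of these 11 markers, *Pdgfra* (-1.55) and *Pdgfrb* (-1.35) fell at 4 h with every scaling tried, *Thy1* (-1.39) did so at 20 h, and *Col1a1* (-1.06) and *Col3a1* (-1.02) fell at 20 h with the main scaling but not with 3 of the 5 others. At 20 h and 32 h, 10 of the 11 lay below the control with the main scaling, and their median ran from -0.30 to 0.05 and from -0.18 to 0.01 with the others. Of 9 macrophage markers, 6 were detected on some array and the defining genes *Ptprc*, *Emr1* and *Lyz2* on none, and their summed signal was 23.8 in the control, 35.6 at 4 h, 14.6 at 20 h and 16.5 at 32 h. This sum was mostly *Itgam* and was highest at 4 h, like several of the genes below. At 4 h *Cd68* rose 4.23-fold and *Lyz1* by a bound of 3.15-fold, both also with the 5 other scalings, and the median over the 5 measured macrophage markers was 0.28, which ran from -0.13 to 0.24 with the other scalings. At 32 h *Aif1* and *Cd14* rose (both 1.04). The part of these fibroblast and macrophage markers in the results below was not tested. Markers of T cells (2 of 5 detected), endothelium (3 of 5) and epithelium (3 of 6) had summed signals from 2.07 to 2.51, 3.23 to 4.31 and 0.703 to 1.46, highest at 32 h for T cells and at 4 h for the others.

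The sequences before the transcription starts of the genes that rose most at 4 h, and of *Cxcl10*, which behaved differently, show where the motif letters of known regulators lie. RefSeq promoters (GRCm38.p6) were matched for 7 of the 10 genes, with 8 promoters, and *Ccl2*, *Ccl7* and *Cxcl5* were not matched. The 250 bases before the start are written 5′ to 3′ on the strand of the gene, and capitals mark matches to the NF-kappa-B consensus or to the AP-1 motif TGANTCA on either strand.
*Il6*, chr5:30012864-30013113, + strand: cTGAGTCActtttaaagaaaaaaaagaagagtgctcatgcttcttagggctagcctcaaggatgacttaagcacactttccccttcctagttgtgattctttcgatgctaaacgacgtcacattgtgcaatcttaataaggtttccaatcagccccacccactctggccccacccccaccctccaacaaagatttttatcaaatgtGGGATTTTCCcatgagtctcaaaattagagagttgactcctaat
*Cxcl1*, chr5:90890995-90891244, + strand: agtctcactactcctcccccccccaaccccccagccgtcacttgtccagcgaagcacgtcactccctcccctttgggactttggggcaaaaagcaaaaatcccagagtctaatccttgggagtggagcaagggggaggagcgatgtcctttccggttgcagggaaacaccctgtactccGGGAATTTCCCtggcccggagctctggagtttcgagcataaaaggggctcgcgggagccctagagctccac
*Lif*, chr11:4257318-4257567, + strand: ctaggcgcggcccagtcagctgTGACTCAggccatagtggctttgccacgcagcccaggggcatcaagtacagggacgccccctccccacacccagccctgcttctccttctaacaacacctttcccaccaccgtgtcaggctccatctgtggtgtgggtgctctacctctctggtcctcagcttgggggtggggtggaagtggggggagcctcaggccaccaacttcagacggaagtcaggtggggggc
*Il11*, chr7:4778142-4778391, - strand: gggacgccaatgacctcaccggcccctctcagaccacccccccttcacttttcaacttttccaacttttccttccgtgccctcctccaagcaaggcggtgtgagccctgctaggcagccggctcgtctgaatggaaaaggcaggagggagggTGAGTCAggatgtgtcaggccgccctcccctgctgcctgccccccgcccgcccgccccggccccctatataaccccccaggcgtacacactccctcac
*Cxcl10*, chr5:92348890-92349139, - strand: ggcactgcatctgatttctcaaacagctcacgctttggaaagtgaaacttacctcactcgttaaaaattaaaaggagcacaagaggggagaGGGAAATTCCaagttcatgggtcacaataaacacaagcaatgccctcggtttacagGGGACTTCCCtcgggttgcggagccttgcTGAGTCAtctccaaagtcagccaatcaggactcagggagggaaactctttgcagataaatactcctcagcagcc
The NF-kappa-B consensus lay 44 to 35 bases before the start in *Il6*, 71 to 61 in *Cxcl1* (overlapping matches on both strands), and 159 to 150 and 103 to 94 in *Cxcl10*. *Csf1*, not printed, held it 154 to 145 bases before the start. The AP-1 motif lay 249 to 243 bases before the start in *Il6*, 228 to 222 in *Lif*, 98 to 92 in *Il11* and 74 to 68 in *Cxcl10*. Another promoter of *Il11* (chr7:4782858-4783107), not printed, held neither motif. Among the 8 promoters, 4 held the NF-kappa-B consensus and 4 the AP-1 motif, while 3.9% and 6.75% of 32817 promoter windows of the same length did. Of the other 5 motifs searched on both strands, the C/EBP motif TTGCNNAA was found in *Il6* (9.57% of all windows), the interferon response motif GAAANNGAA in *Cxcl10* (7.12%), and the antioxidant response motif TGACNNNGC in *Lif* and *Cxcl10* (10.2%), the latter overlapping the AP-1 match. The heat shock element GAANNTTC (6.69% of windows) and the E-box CACGTG (6.02%) were found in none of the 8. These matches are letters in a sequence and were not measured as binding sites.

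At 4 h after cOS-pulse, the transcripts of the 3 IL-6 family cytokines and of the neutrophil chemokine *Cxcl1* rose, from 2.72-fold for *Il11* to 10.1-fold for *Il6*. *Ccl2*, *Ccl7* and *Cxcl5* were higher by less than 2-fold, and *Cxcl10* was close to the control by its brighter probe. The probes listed for 1 transcript variant of *Csf1* fell. Past the threshold were 4 higher and 3 lower probes of the 13 that could be compared. The 3 lower probes were of 2 genes, since both *Csf1* probes among them share 31 bases. Among all 23960 probes that could be compared, 11.1% were higher and 8.13% lower, and with 5 other scalings between arrays these shares ran from 5.48% to 8.78% and from 10.0% to 16%, with the same 4 higher genes. The 13 include a *Cxcl10* and a *Cxcl12* probe that were detected on 1 array of the pair, for which a difference was a condition of the comparison.

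**Figure D1:**
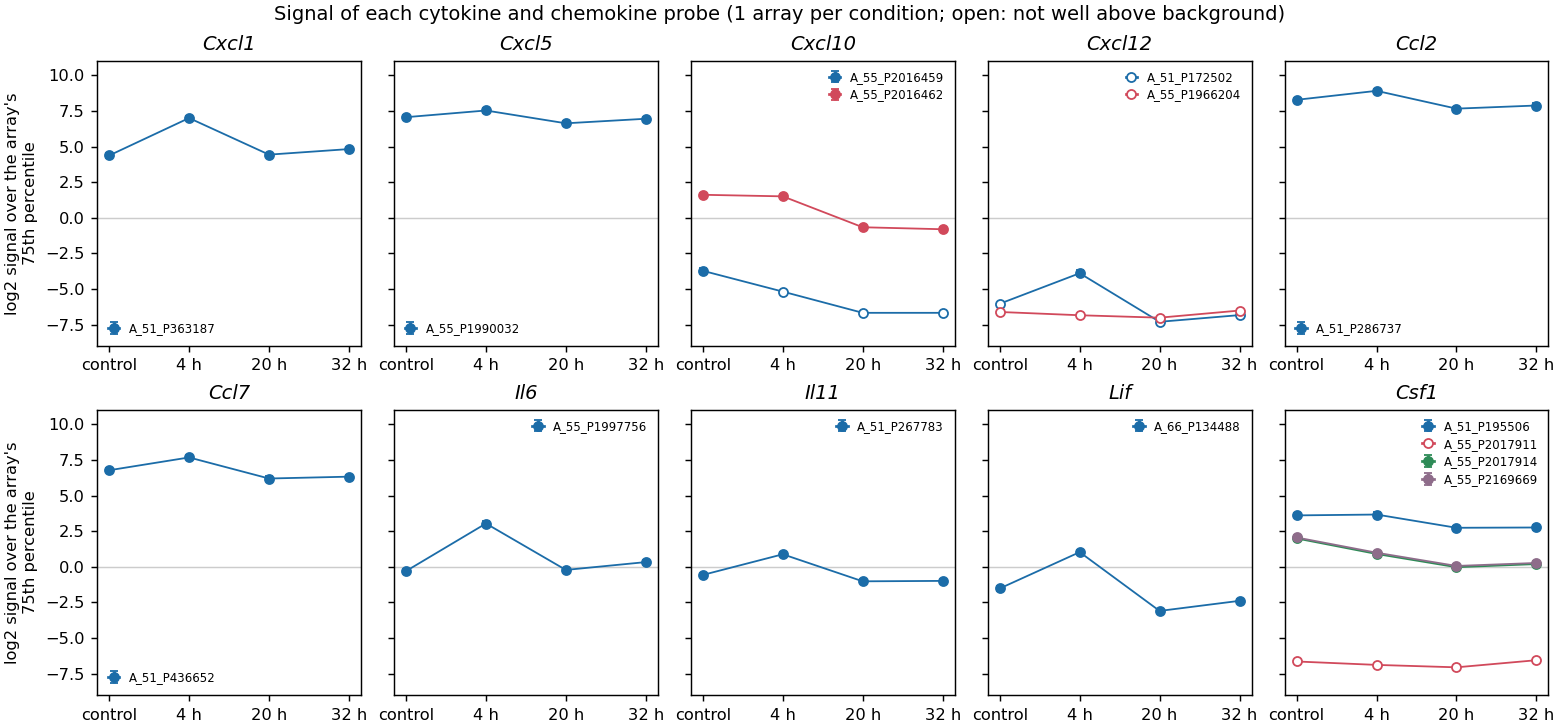
Log2 scaled signal (over the 75th percentile of the array) of each of the 15 probes, by gene, on the control array and the 3 cOS-pulse arrays, with 1 array per condition. Filled points are detected, open points are not well above background, and bars are the scanner error. *Il6*, *Cxcl1*, *Lif* and *Il11* peak at 4 h, while the brighter *Cxcl10* probe is at 1.61 in the control and then at -0.67 at 20 h and -0.81 at 32 h.

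*Il6* encodes the cytokine that drives the acute-phase response. Its probe (A_55_P1997756, mm9 chr5:30346367-30346426) had a scaled signal of 0.811 in the control, 8.22 at 4 h, 0.859 at 20 h and 1.25 at 32 h. The 4 h array stood 10.1-fold above the control (log2 ratio 3.34 ± 0.20), and the 20 h array was within the scanner error of the control (0.08 ± 0.20). At 32 h the ratio was 0.63 ± 0.20, or 1.55-fold, above the control by more than the scanner error but under the threshold. The ratio at 4 h had rank 43 from the top among 20392 probes measured on both arrays.

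*Lif* encodes leukemia inhibitory factor, known for holding embryonic stem cells in the undifferentiated state. Its probe (A_66_P134488, mm9 chr11:4172032-4172091) had a scaled signal of 0.349 in the control, 2.04 at 4 h, 0.117 at 20 h and 0.191 at 32 h. *Lif* thus rose 5.84-fold at 4 h (2.55 ± 0.21) and lay below the control at both later times, by 3.0-fold at 20 h (-1.58 ± 0.22) and by a log2 ratio of -0.87 ± 0.22 at 32 h. Between 4 h and 20 h the signal dropped 17.5-fold, more than that of any other of the 10 genes. *Il11*, a cytokine known for its part in tissue fibrosis, was measured by 1 probe (A_51_P267783, mm9 chr7:4724847-4724906) with a scaled signal of 0.675 in the control, 1.83 at 4 h, 0.493 at 20 h and 0.502 at 32 h. Its rise at 4 h was 2.72-fold (1.44 ± 0.21), and its ratios at 20 h and 32 h were -0.45 and -0.43, both under the threshold. All 3 cytokines were highest at 4 h, while at both later times *Il6* lay above the control in value and *Lif* and *Il11* below it, past the threshold for *Lif* at 20 h alone.

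*Cxcl1* and *Cxcl5* encode ligands of the receptor Cxcr2 that attract neutrophils. The *Cxcl1* probe (A_51_P363187, mm9 chr5:91321845-91321904) had a scaled signal of 20.7 in the control, 127.6 at 4 h, 21.5 at 20 h and 28.2 at 32 h. It rose 6.17-fold at 4 h (2.63 ± 0.20), was level with the control at 20 h (0.06 ± 0.20) and was higher by 0.45 ± 0.20 at 32 h. The *Cxcl5* probe (A_55_P1990032, mm9 chr5:91190490-91190549) lies 131295 bases from it in the same chemokine cluster and had a scaled signal of 133.8 in the control, 185.1 at 4 h, 98.8 at 20 h and 123.9 at 32 h. Its ratios were 0.47 at 4 h, -0.44 at 20 h and -0.11 at 32 h, none of them past the threshold, and the last was above 0 with 3 of the 5 other scalings. Both ligands were highest at 4 h and lowest of the 3 pulsed arrays at 20 h, where *Cxcl5* was below the control and *Cxcl1* was not.

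*Ccl2* and *Ccl7* encode chemokines that attract monocytes and lie side by side on chromosome 11, their probes 9946 bases apart. The *Ccl2* probe (A_51_P286737, mm9 chr11:81850650-81850709) was spotted 10 times on each array, with a mean scaled signal of 311.9 in the control, 482.1 at 4 h, 202.5 at 20 h and 235.2 at 32 h. With the main scaling its spots ran from 292.8 to 332.2 in the control and from 436.0 to 533.2 at 4 h, without overlap. They ran from 193.7 to 215.0 at 20 h and from 221.7 to 246.6 at 32 h. With the 5 other scalings the ratio at 4 h was 0.23 to 0.50, so the gap between control and 4 h spots depends on the scaling. The SD over the 10 spots was between 0.0471 and 0.114 on the log2 scale, well under the ratios of 0.63, -0.62 and -0.41 at 4 h, 20 h and 32 h, but it covers the array surface and not separate cultures. The *Ccl7* probe (A_51_P436652, mm9 chr11:81860656-81860715) followed the same order, with a scaled signal of 110.1 in the control, 204.8 at 4 h, 73.4 at 20 h and 80.3 at 32 h. The *Ccl7* ratio was 0.90 ± 0.20 at 4 h (1.86-fold), -0.59 at 20 h and -0.46 at 32 h. Neither gene passed the threshold against the control at any time.

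*Cxcl10* encodes an interferon-inducible ligand of Cxcr3 that attracts T cells. Its brighter probe (A_55_P2016462, mm9 chr5:92775781-92775840) had a scaled signal of 3.05 in the control, 2.84 at 4 h, 0.628 at 20 h and 0.572 at 32 h. The control and 4 h arrays differed by less than the scanner error (-0.10 ± 0.20), and the signal then lay 4.86-fold below the control at 20 h (-2.28) and 5.33-fold below it at 32 h (-2.41). These ratios had rank 25 from the bottom of 20448 probes at 20 h and rank 16 of 19969 at 32 h. The dimmer probe (A_55_P2016459), 775 bases away and listed for a cDNA clone, was detected in the control only, with a scaled signal of 0.0755. It was at least 2.31-fold lower at 4 h, 2.60-fold at 20 h and 2.0-fold at 32 h, the last of these at the threshold, so the 2 probes disagreed at 4 h. With normexp background correction the log2 bound at 4 h was -0.45, short of the threshold.

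*Cxcl12* encodes the ligand of Cxcr4 that retains blood stem cells in the marrow. It was barely measured in these cells. The probe for transcript variant 3 (A_51_P172502, mm9 chr6:117131227-117131286) was detected at 4 h only, with a scaled signal of 0.0671 and not well above background on the other arrays, which gave a bound of at least 1.82-fold over the control. The probe for variant 1 (A_55_P1966204), 6141 bases away, was detected on no array.

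**Figure D2:**
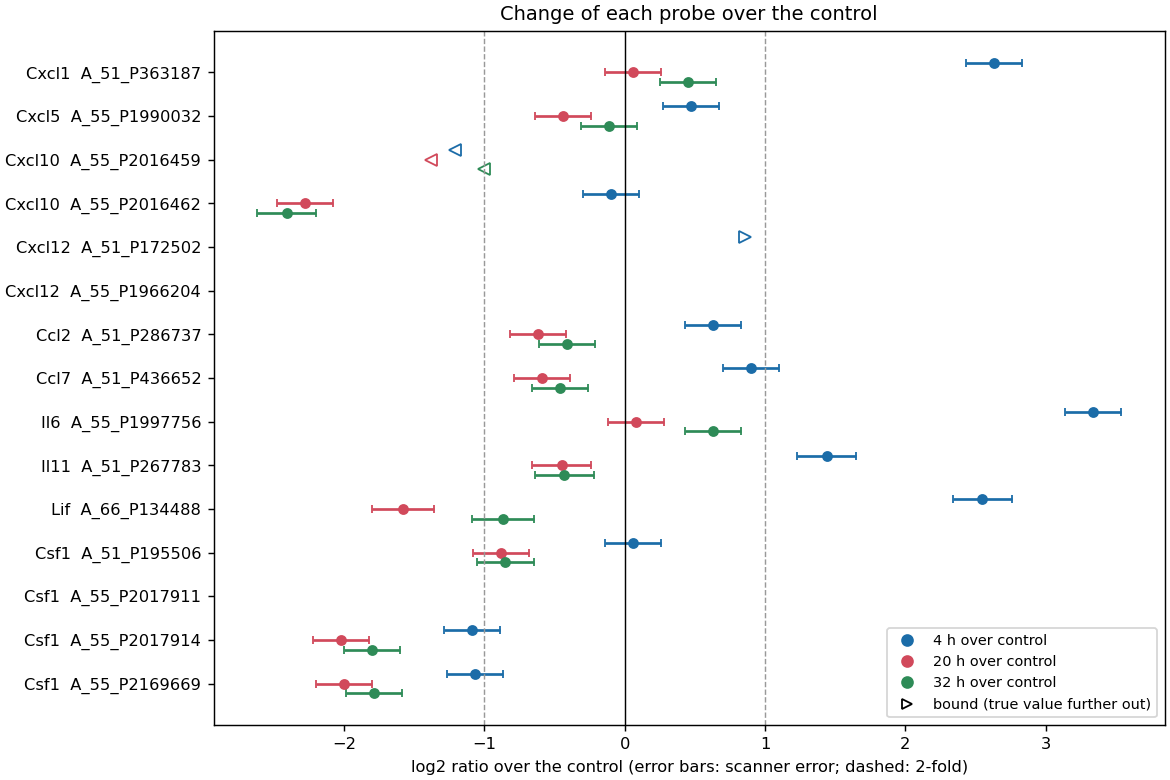
Log2 ratio of each probe over the control at 4 h (blue), 20 h (red) and 32 h (green), with the scanner error as bars and triangles for bounds. *Il6*, *Cxcl1*, *Lif* and *Il11* lie beyond the dashed 2-fold line at 4 h. At 20 h and 32 h no probe lies beyond it on the higher side, which is close to the 1.35% and 2.07% of all comparable probes.

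*Csf1* encodes the growth factor of macrophages and their precursors, and its probes, named here by transcript variant, differed in their ratios. The variant names are labels, and which variants each probe reads was not tested. The probe assigned here to variants 1 and 2 (A_51_P195506, mm9 chr3:107544333-107544392, 10 spots) is annotated with a single transcript, and its exon was not determined. This probe had a scaled signal of 12.2 in the control, 12.8 at 4 h, 6.66 at 20 h and 6.78 at 32 h. Its ratio was 0.06 ± 0.20 at 4 h, which turned to between -0.34 and -0.06 with the 5 other scalings, and -0.88 and -0.85 later. The first probe for variant 3 (A_55_P2017914, mm9 chr3:107548550-107548609) had a scaled signal of 3.97 in the control, 1.87 at 4 h, 0.980 at 20 h and 1.14 at 32 h. It fell 2.13-fold at 4 h (-1.09), 4.06-fold at 20 h (-2.02) and 3.49-fold at 32 h (-1.80). The other variant 3 probe (A_55_P2169669), which shares 31 bases with it, gave -1.07, -2.00 and -1.79, and the fourth *Csf1* probe (A_55_P2017911) was detected on no array. The drop at 4 h was thus seen at the variant 3 probes and not at the probe assigned to variants 1 and 2. The difference between their log2 ratios was -1.15 ± 0.29 at 4 h, -1.14 ± 0.29 at 20 h and -0.95 ± 0.29 at 32 h, or 2.22-fold, 2.21-fold and 1.94-fold. Dividing each array by 1 constant leaves this difference as it is. Between 4 h and 20 h the probes moved alike, by -0.94 at the probe assigned to variants 1 and 2 and by -0.93 at the first variant 3 probe. The difference was thus present at 4 h and was no wider at 20 h.

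**Figure D3:**
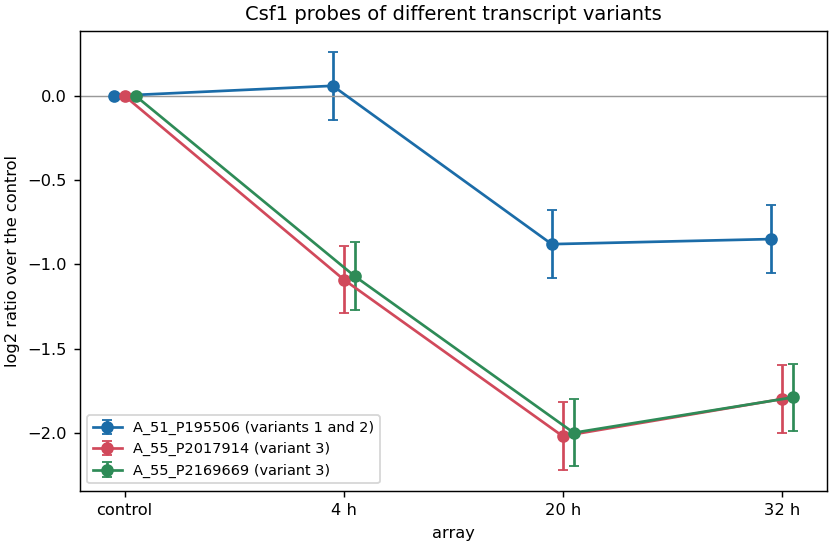
Log2 ratio over the control (bars, scanner error) of the *Csf1* probe assigned to transcript variants 1 and 2 and of both probes listed for variant 3, on the 4 arrays. Which variants each probe reads was not tested. The variant 3 probes lie at -1.09 and -1.07 at 4 h, where the other probe is at 0.06 (below 0 with the other scalings), and all 3 are lower at 20 h.

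Over the 9 genes with a measured ratio, taking the brightest probe of each, the median log2 ratio at 4 h was 0.90, with 8 above 0, and *Csf1* among these was below 0 with each of the 5 other scalings. Over all 13332 measured genes the median was 0.12, with 56.7% above 0. The 5 other scalings moved the median ratio of all probes at 4 h by -0.40 to -0.12, at 20 h by -0.01 to 0.33 and at 32 h by -0.01 to 0.18. With them the ratio at 4 h was 2.94 to 3.22 for *Il6*, 2.16 to 2.50 for *Cxcl1*, 2.14 to 2.54 for *Lif* and 1.04 to 1.44 for *Il11*, past the threshold in each. The smaller ratios were 0.49 to 0.77 for *Ccl7*, 0.23 to 0.50 for *Ccl2* and 0.04 to 0.34 for *Cxcl5*.

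**Figure D4:**
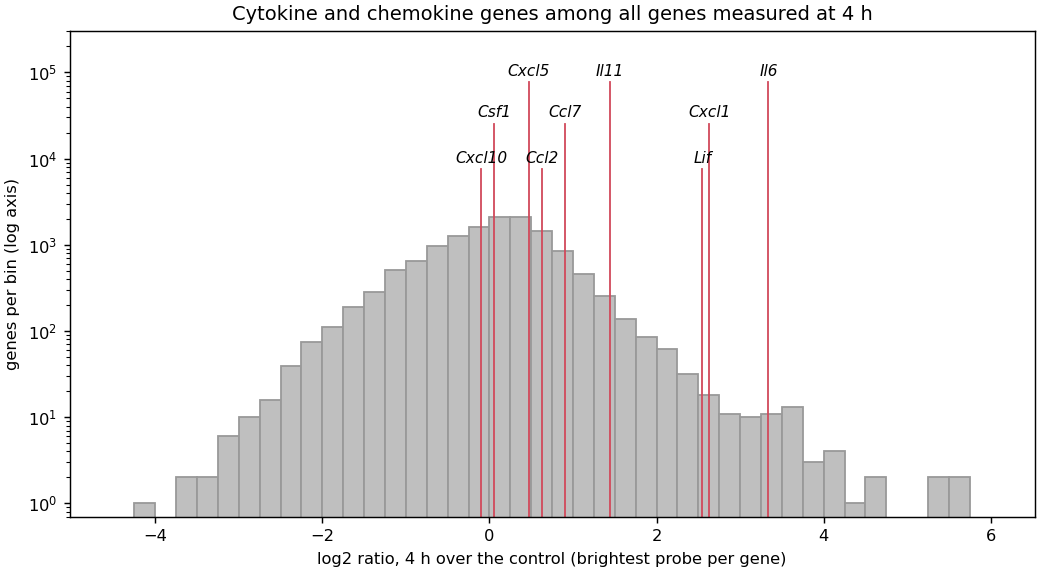
Number of genes (log axis) by log2 ratio at 4 h over the control, 1 probe per gene, with the 9 measured cytokine and chemokine genes as red lines whose heights carry no value. *Il6*, *Cxcl1* and *Lif* lie in the thin upper tail at 3.34, 2.63 and 2.55, and *Csf1*, which falls below 0 with other scalings, and *Cxcl10* lie in the middle at 0.06 and -0.10.

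At 20 h and 32 h no member rose, and *Cxcl10* and the variant 3 probes of *Csf1* fell at both times. At 20 h, 0 of 12 comparable probes were higher and 5 were lower (both *Cxcl10* probes, *Lif* and both *Csf1* variant 3 probes), beside 1.35% higher and 3.3% lower among 22359 probes. At 32 h, 0 of 12 were higher and 4 lower, the same probes without *Lif*, beside 2.07% and 2.59% of 21850 probes. The dimmer *Cxcl10* probe, detected in the control only, entered both counts through the array where it was high, and without it 4 and 3 probes were lower by a measured ratio. The *Csf1* variant 3 probes share 31 bases and are not separate measurements. Counted by gene, 3 genes were lower at 20 h and 2 at 32 h. The median over the 9 measured genes was -0.59 at 20 h and -0.43 at 32 h, with 2 genes above 0 each time (*Cxcl1* and *Il6*), while the median of all genes was 0.02 at both times. In bulk RNA, fewer cells that make a transcript and less of it per cell cannot be told apart.

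The 20 h and 32 h arrays were also compared with each other, a pair of times chosen by the study to find circadian changes. None of 11 comparable probes was at least 2-fold higher or lower at 20 h, beside 0.88% and 1.88% of 22265 probes. The widest log2 ratios of 20 h over 32 h were those of *Lif* (-0.71), *Il6* (-0.55), *Cxcl1* (-0.39) and *Cxcl5* (-0.33). *Cxcl10* had a ratio of 0.13, and the others lay between -0.22 and -0.02, of which *Ccl7*, *Il11* and the *Csf1* probe for variants 1 and 2 changed sign with 1 or more of the other scalings.

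Set against the 4 h array, every measured gene was lower at 20 h. Of 12 comparable probes, 8 were at least 2-fold lower and 0 higher, beside 14.9% lower and 9.05% higher among 24193 probes, and with the 5 other scalings these background shares ran from 5.83% to 12.6% and from 10.8% to 23.1%. The *Cxcl12* probe entered this count through the 4 h array alone, and 7 of the 8 were measured on both arrays. The 4 h signal exceeded that at 20 h by 17.5-fold for *Lif*, 9.57-fold for *Il6*, 5.94-fold for *Cxcl1*, 4.52-fold for *Cxcl10*, 3.72-fold for *Il11*, 2.79-fold for *Ccl7* and 2.38-fold for *Ccl2*, and by at least 2.31-fold for *Cxcl12*. It exceeded that of *Csf1* by 1.91-fold and of *Cxcl5* by 1.87-fold. *Cxcl10* belonged to this group by its drop after 4 h alone, since it had not risen before. With the other scalings all of these measured ratios kept their direction, but *Ccl7* passed the threshold in 2 of the 5 and *Ccl2* in 1. The log2 ratio of 32 h over 4 h was -3.42 for *Lif*, -2.71 for *Il6*, -2.31 for *Cxcl10* and -2.18 for *Cxcl1*. This comparison uses the 4 h array that the ratios over the control also use, so the 2 sets of values are not independent.

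Other genes of the same pathways were taken from fixed lists and counted at 4 h with the same threshold and 1 probe per gene. The list sizes given here include genes that were detected on no array. The 11.1% of probes that were higher and the 8.13% that were lower cover only probes that could be compared. The list counts are therefore not shares of the same kind and would be larger over detected genes alone. The list medians and the median of 0.12 over all genes were both taken over measured genes. Of 25 further genes of the IL-6 family and other cytokines, 4 rose and 0 fell, with a median of 0.19 over 14 measured genes. None of the 4 was of the IL-6 family. The family's genes on the list were under the threshold, *Cntf* at 0.70, *Clcf1* at 0.31, *Il27* at 0.19 and *Ctf1* at -0.92, and *Osm* was detected on no array. With the 5 other scalings 3 rose and between 1 and 4 fell, *Ctf1* in each, so the one-sided count held with the main scaling only. *Csf3*, the granulocyte growth factor, went from a scaled signal of 0.192 to 2.02 (10.5-fold, 3.40 ± 0.22), and *Il19*, of the IL-10 family, from 0.0509 to 0.383 (7.51-fold). Of 19 other CC, C and CX3C chemokines, 2 rose and 2 fell around a median of -0.02. *Ccl25*, a chemokine of thymus and gut, rose 9.36-fold (3.23 ± 0.20), while *Ccl9* and *Cx3cl1* fell (-1.77 and -1.57). Of 11 other CXC chemokines, 2 were measured and neither passed the threshold. Among 17 receptors of the 10 factors, 1 rose by a bound and 1 fell, the scavenging receptor *Cxcr7*, which binds Cxcl12 (-1.36 ± 0.21), joined by *Il11ra1* with 4 of the 5 other scalings. In the list of JAK-STAT genes and their inhibitors (14 genes), *Stat5a* and *Stat5b* fell (-1.23 and -1.28), and the feedback inhibitor *Cish* rose (1.04). With each of the 5 other scalings *Cish* was under the threshold, 0 genes of this list rose, and between 4 and 6 fell.

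The list of NF-kappa-B, AP-1 and C/EBP factors and their regulators (27 genes) had 8 that rose and 2 that fell at 4 h, and a median of 0.59 over 23 measured genes. The largest measured rises were those of the AP-1 subunit *Fosb* (4.87-fold) and of *Nfkbib*, an inhibitor that holds NF-kappa-B in the cytoplasm (2.50-fold), and the falls were those of the interferon regulatory factors *Irf3* (-1.17) and *Irf1* (-1.01). Of the 8, only *Fosb* and *Fos*, the latter by a bound, passed the threshold with every scaling, and the count was 2 with scaling by the median or by spike-in probes. All 11 genes of the list for control of cytokine mRNA decay were measured, with a median of 0.82. With the main scaling 10 lay above 0, but *Tia1* among them was at 0.0, level with the control. *Zfp36l1* (0.19) and *Khsrp* (0.20) were close to the scanner error of 0.20. Only 1 passed the threshold, *Zfp36*, which encodes the AU-rich element binding protein tristetraprolin (2.98-fold, 1.57 ± 0.21). The medians of the last 2 lists stayed above 0 with the 5 other scalings (0.18 to 0.46 and 0.42 to 0.69), whereas that of the cytokine list ran from -0.21 to 0.12. At 20 h and 32 h at most 2 genes of any of these lists passed the threshold in either direction, among them *Ccl9* (-2.70 and -1.21), *Cx3cl1* (-1.54 and -1.36) and *Cxcr7* (-2.01 and -1.62), which were lower at all 3 times.

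**Figure D5:**
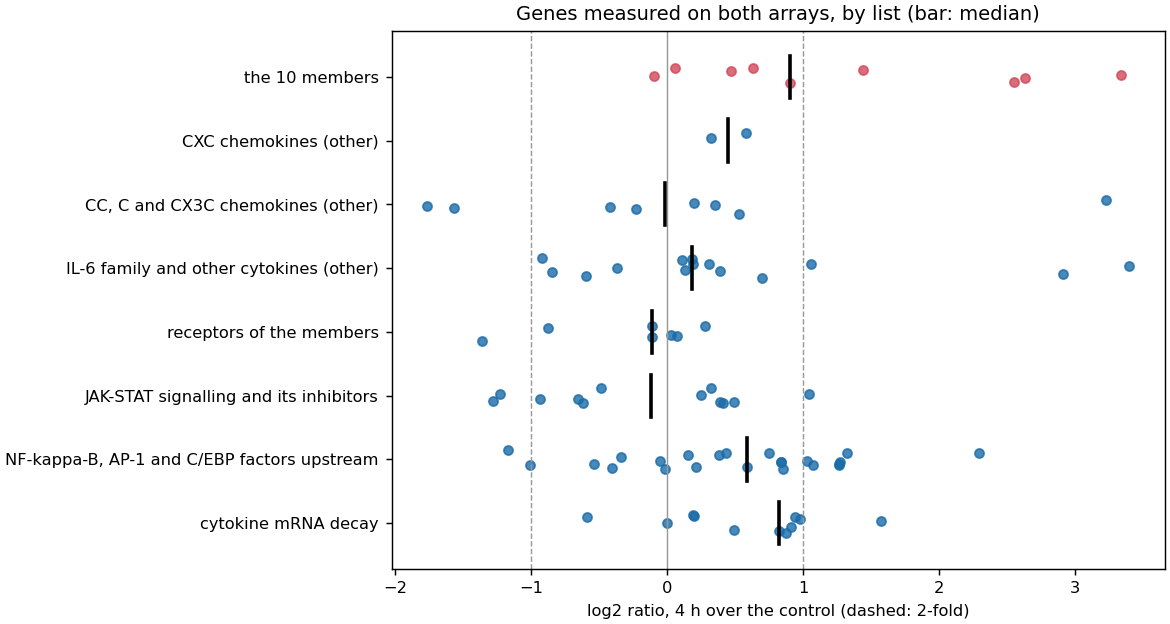
Log2 ratio at 4 h over the control of each measured gene (points) of the 10 factors and of 7 pathway lists, with the list median as a black bar and 2-fold as dashed lines. The medians are 0.90 for the 10 factors, 0.82 for cytokine mRNA decay, 0.59 for NF-kappa-B, AP-1 and C/EBP factors and between -0.12 and 0.45 for the others, of which that of the IL-6 family and other cytokines changes sign with other scalings.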

How the data were processed

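Per the labels and methods, RNA of 4 cultures was hybridized to 4 one-color Agilent mouse 4x44K arrays. The authors deposited the intensity of each spot from Agilent Feature Extraction 10.7.3.1, background-subtracted, and a table that differs from it by 1 divisor for each array. From the deposited intensities, log2 values of spots without an outlier flag (125 to 161 spots per array left out, 0 saturated) were averaged per probe and centered on the 75th percentile of that array. Precision is limited by having 4 arrays.

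The 10 genes, the gene lists and the comparisons were chosen with earlier results of these data known. All 15 probes of the 10 genes are described, and from each list up to 2 of the largest measured rises and 2 falls past 2-fold. *Fos*, *Il11ra1*, *Tia1*, *Zfp36l1* and *Khsrp* were named after their values were seen, as was the comparison of 20 h with 4 h. The same holds for *Cntf*, *Clcf1*, *Il27*, *Ctf1* and *Osm*. Alternatives were 5 other scalings, normexp correction of the background at an offset of 50 (limma 3.58.1, R 4.3.3), the deposited scaled table, 3 other detection rules, flagged spots kept, thresholds of 1.5-fold and 3-fold, and the median over the probes of a gene. The steps were tested on simulated data. Promoters came from a RefSeq table (GRCm38.p6), and probe positions are those of the array annotation (mm9). Calculations used Python 3.11.15, numpy 2.4.6 and pandas 2.3.3.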

Additional observations from a re-analysis of the deposited data

Results flagged for a closer look

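*Lif* stood out because its ratios over the control lay on opposite sides past the threshold at different times, 2.55 at 4 h and -1.58 at 20 h on the log2 scale, with 1 array each. The difference between the times was not tested. The scaled signal of the probe at 20 h, 0.117, was detected, and the scanner error there was 11.4% of the signal. With normexp background correction the ratios were 2.32 and -1.30.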

How the results depend on the processing

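No paired analysis was possible because each condition had 1 array, and for the same reason no replicate could be left out. Over all alternatives, 170 of 190 counts and medians of the 10 genes kept to their value within 1.5 times for a count or 0.20 for a median, and 0 of the called values reversed. Some of these could hardly differ. The divisors of the deposited table were close to the 75th percentiles of the main scaling, and counts of 0 that stayed 0 are among those kept. At 1.5-fold in place of 2-fold, 7 probes were higher at 4 h, 8 were lower and 0 higher at 20 h, 1 was higher at 32 h, and 1 was lower at 20 h than at 32 h. At 3-fold, 0 were lower at 4 h, 3 at 20 h, and 5 at 20 h vs. 4 h. The count of 8 lower at 20 h vs. 4 h was 5 with quantile normalization, spike-in scaling or no scaling. The median at 4 h was 0.53 with scaling by the median, 0.49 with quantile normalization, 0.49 with scaling by spike-ins and 0.61 unscaled. It was 1.17 over 10 genes with detection by positive and significant signal or without a detection filter, which brought in *Cxcl12*. Without scaling, the median at 20 h was -0.25. The median of 20 h over 4 h was -1.43 with scaling by the median, -1.29 with scaling by spike-ins and -1.28 unscaled. The signal over background limits *Cxcl12* and the dimmer *Cxcl10* probe, which had only bounds.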

Other observations

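The chemokine genes that lie next to the members, listed after the values of the members were seen, did not all move with them at 4 h. Beside *Ccl2* and *Ccl7* on chromosome 11, *Ccl11* had a log2 ratio of -0.23 and *Ccl8* of 0.20, both below the ratios of 0.63 and 0.90 of their neighbors, *Ccl12* was detected on no array and *Ccl1* on 1. Between *Cxcl5* and *Cxcl1* on chromosome 5, *Ppbp* had a ratio of 0.58, *Pf4* a bound of 0.77 with detection at 4 h only, and *Cxcl3* and *Cxcl15* were detected on no array, like *Cxcl2* beyond *Cxcl1*. *Cxcl2*, which in many cells accompanies *Cxcl1*, was thus not well above background on any array, and its change could not be measured. Its scaled signal was 0.00934 in the control, 0.0390 at 4 h, 0.00685 at 20 h and 0.00964 at 32 h. The lack of detection therefore does not show that *Cxcl2* stayed level while *Cxcl1* rose 6.17-fold.

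Over the 3 ratios to the control, the probes closest to *Il6* among 17285 probes detected on all arrays were those of *A830052D11Rik* (Euclidean distance 0.10 in log2 units), *Hpx* (0.26) and *Cabyr* (0.28). Closest to *Cxcl1* were *Dnajb9* (0.13), *Itga10* (0.16) and *Prr5l* (0.21). *Lif*, with its rise at 4 h and low signal later, had no neighbor as close, the nearest being *Fabp4* (0.68), *Inhba* (0.79) and *Gm3448* (0.79). These distances describe 4 arrays and carry no test.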
